A study of Homo sapiens with 12 samples.

Results

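The comparison of IMR5 neuroblastoma cells grown for 24 h with 100 nM selinexor against IMR5 cells grown with the solvent DMSO comprised 6 of the 12 libraries of the series, 3 in each group. Its members were the libraries labelled DMSO 1 to 3 and selinexor 1 to 3, whose values stand in a table of their own with 20029 genes, of which 18128 had a mean value of 10 or more and were tested. The labels do not give the duration of the DMSO culture. IMR5 is an established human line with amplification of the oncogene MYCN, so every library carries that amplification, and a single line stands for the disease here. Libraries were made from total RNA with strand-specific chemistry. Nothing in the labels ties the replicates to separate cultures. The p-values therefore measure only the spread among these samples, and that spread may be technical. In bulk RNA, fewer cells of a type and less RNA per cell cannot be told apart.

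XPO1, also called exportin 1 or CRM1, carries proteins that bear a leucine-rich export signal, and several kinds of RNA through adaptor proteins, out of the nucleus together with RanGTP. Selinexor binds covalently to a cysteine in the groove of XPO1 that holds the export signal. Cargoes of XPO1 include p53, RB family proteins, FOXO factors and the inhibitor of NF-kB. p53 acts as a transcription factor whose targets halt the cell cycle, repair DNA and promote cell death, and p21, encoded by its target CDKN1A, holds E2F factors and the DREAM complex in their repressive state.

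The table gives normalised read counts, which are gene counts divided by a size factor for each library. Estimated depth was 39.5 to 40.9 M reads in the DMSO libraries and 26.8 to 33.8 M in the selinexor libraries, lowest in selinexor 1. Selinexor 1 stood apart, with a log2 correlation of 0.974 and 0.977 to the other selinexor libraries, which correlated at 0.991. Of the genes tested, 4146 were higher with selinexor (22.9%) and 4774 were lower (26.3%), together 49.2% (limma, Benjamini-Hochberg adjusted p under 0.05), and the median log2 fold change of all genes was -0.0076. Among genes past the threshold 46.5% were higher, and 61.3% were higher when the libraries were set to equal totals without RN7SL and mitochondrial genes, which moved the median of all genes up by 0.16 on the log2 scale. Changes of at least 2-fold made up 1740 rises (9.6%) and 1002 falls (5.53%), and the groups were fully apart, with every library of one above every library of the other, in 61.7% of genes. All counts for gene groups below are of tested members and are to be read against these shares. The shares include noncoding and unmatched genes. Among 13182 protein coding genes tested, 21.7% were higher and 32.6% lower. In the quartile of protein coding genes with the highest means, 12.4% were higher and 47.8% lower. Every fold change below is a difference of log2(value + 1). That scale understates changes of genes with low values, and the SE follows in parentheses.

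**Figure D1:**
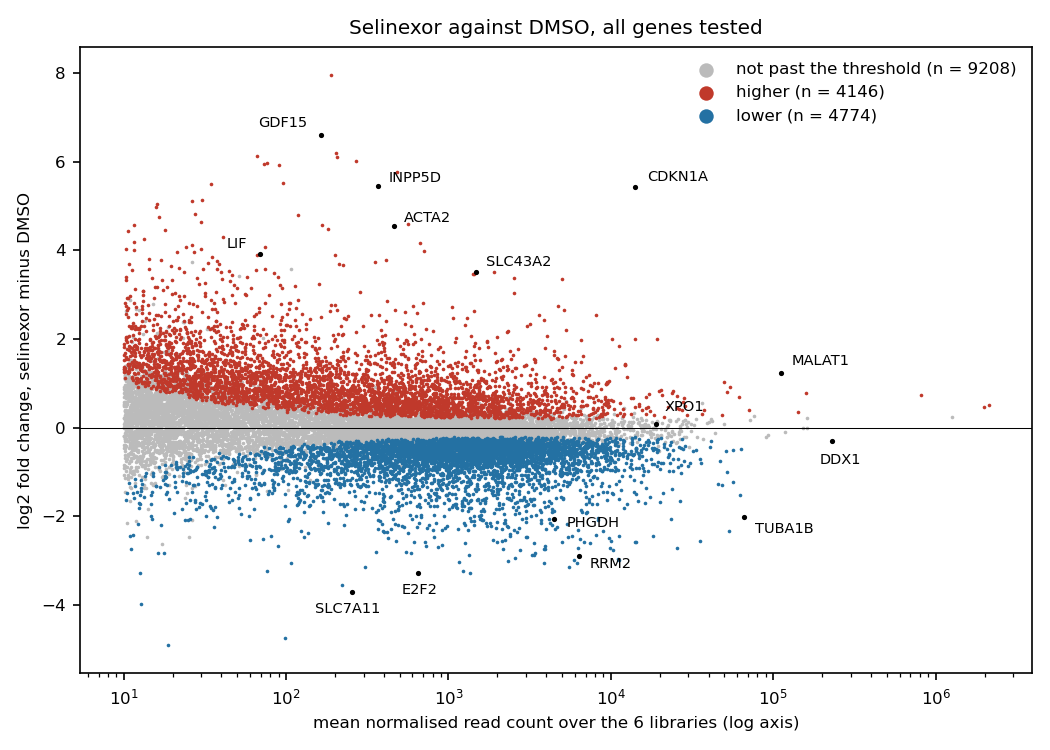
Log2 fold change (selinexor minus DMSO, vertical axis) against the mean normalised read count over the 6 libraries (log horizontal axis) for the 18128 genes tested. Each point is a gene, in red where higher, in blue where lower and in grey where not past the limma threshold, and 14 genes described in the text carry their names. CDKN1A combines a large rise with a high level, and XPO1 lies close to 0.

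The gene for the drug's target was not past the threshold. XPO1 (hg19 chromosome 2, 61704984 to 61765762, minus strand) read 17886, 18899 and 18356 in the DMSO libraries and 15544, 22513 and 21165 with selinexor. Selinexor 1 lay below all DMSO libraries and the other 2 lay above them, so the difference of 0.09 on the log2 scale (SE 0.135, limma adjusted p = 0.623) became 0.25 (adjusted p = 0.0019) without selinexor 1. Among 20 genes of export receptors and of the Ran cycle, which sets the direction of transport, 15 fell, 1 rose and the median log2 fold change was -0.64; the count that rose was 3 without selinexor 1, 2 with equal totals without RN7SL and mitochondrial genes and 0 without selinexor 3. RCC1, the exchange factor that loads Ran with GTP in the nucleus, read 3382, 3658 and 3597 with DMSO and 1285, 1193 and 1070 with selinexor (-1.59, SE 0.0925). RCC1 shares 4914 bases on the same strand with the row of the snoRNA host SNHG3, so its reads are not fully separable. The Ran-binding protein gene RANBP1 fell by 1.23 (SE 0.0818), and XPOT, the exportin of tRNA, fell by 1.11 (SE 0.118). The exportin genes CSE1L, XPO4, XPO5 and XPO7 fell too, and the messenger RNA export receptor NXF1 was at 0.04, not past the threshold. Of 11 adaptors that link cargo to XPO1, 7 fell, none rose and the median was -0.53. These included both subunits of the nuclear cap-binding complex, NCBP1 (-0.81) and NCBP2 (-0.78), the snRNA export adaptor PHAX (-0.46) and ANP32A (-0.97). NMD3, the adaptor of the large ribosomal subunit, was at -0.26 and not past the threshold.

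Among the 44 pathway groups, the 3 groups of p53 targets had the highest medians. Of 14 targets of cell cycle arrest and DNA repair, 13 rose, 1 fell and the median log2 fold change was 1.5. CDKN1A (chromosome 6, 36644305 to 36655117, plus strand) read 611, 672 and 617 with DMSO and 26245, 29602 and 26274 with selinexor, which is 5.43 on the log2 scale (SE 0.0855; limma adjusted p = 2.53e-08). Every selinexor library stood far above every DMSO library, and the gene was also among the 6 with the largest gain in value. The kinase gene PLK2 read 226, 243 and 233 with DMSO against 2197, 2928 and 2678, and its relative PLK3 read 101, 116 and 88.5 against 730, 748 and 744. Both groups of libraries were apart, with log2 fold changes of 3.46 (SE 0.117) for PLK2 and 2.86 (SE 0.121) for PLK3. The repair genes XPC (1.03), DDB2 (1.32) and POLH (1.44) and the ribonucleotide reductase subunit RRM2B (2.05) rose. The atypical repressor E2F7 was the member that fell, by 0.42.

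Of 15 p53 targets that act in cell death, 12 rose, 1 fell and the median was 1.40. BBC3, which encodes the BH3-only protein PUMA, read 49.0, 35.3 and 46.0 with DMSO and 1207, 1037 and 985 with selinexor. TNFRSF10B, the TRAIL receptor DR5, read 3953, 4142 and 4055 with DMSO and 16531, 16759 and 15333 with selinexor. The groups did not overlap in either gene, and the log2 fold changes were 4.61 (SE 0.152) for BBC3 and 2.0 (SE 0.0756) for TNFRSF10B. TP53INP1 (3.35) and FAS (2.76) rose as well, whereas PMAIP1, which encodes the BH3-only protein NOXA, was at -0.19 and BID at -0.20, both not past the threshold, and SIVA1 fell by 1.22. Among 19 targets in metabolism and feedback 13 rose, 1 fell and the median was 1.38. MDM2, whose protein marks p53 for degradation, read 7606, 7617 and 7587 with DMSO and 24039, 34494 and 33529 with selinexor (1.99, SE 0.135), lowest in selinexor 1. The lysosomal membrane gene DRAM1 rose by 3.99 (SE 0.123), the glutaminase gene GLS2 by 3.22 and the mitochondrial reductase gene FDXR by 3.38 (SE 0.160). The fall in that group, ALDH4A1 (-0.31), was lost under both equal-total scalings, in the fit with a replicate block and when any single library other than selinexor 1 was left out.

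GDF15, a secreted stress cytokine of the TGF-beta family (chromosome 19, 18485541 to 18499987, plus strand), was nearly silent in the DMSO libraries at 2.58, 4.41 and 0.903. It read 389, 282 and 303 with selinexor. Estimated reads were 9 over the DMSO libraries and 869 over the selinexor libraries, which after correction for depth is 122-fold; the 95% exact interval of that ratio, for counting error alone, ran from 63.9 to 267. Its row lies within the span of the small RNA row SNORA68 on the same strand. That span also takes in PDE4C, RAB3A and UQCRFS1 on the opposite strand and is far wider than a small RNA. The overlap therefore does not show that reads are shared. SLC7A11, the cystine importer that feeds glutathione synthesis (chromosome 4, 139085251 to 139163504, minus strand), moved the other way. It read 492, 461 and 465 with DMSO and 18.0, 47.6 and 50.2 with selinexor, which is -3.71 on the log2 scale (SE 0.341; limma adjusted p = 6.44e-05). Selinexor 1 was the lowest library, and without it the log2 fold change was -3.25.

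**Figure D2:**
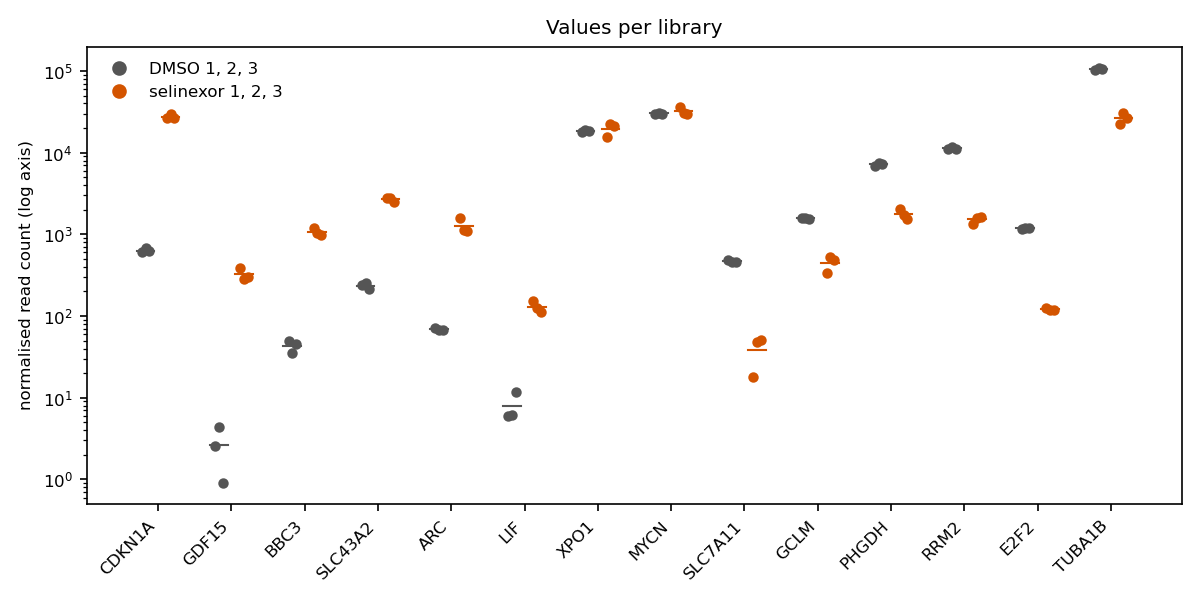
Normalised read counts (log vertical axis) of 14 genes in each library, DMSO in grey and selinexor in orange, with a line at each group mean (n = 3 libraries a group). The groups are apart in every gene shown except XPO1 and MYCN. Selinexor 1 is the lowest library for SLC7A11, XPO1, GCLM, RRM2 and TUBA1B.

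The groups with the lowest medians were those of DNA replication and cell division, and sequence elements known to carry cell cycle control are shown here for members whose promoters hold them. The cell cycle homology region (CHR, searched as TTTGAA) is bound by the DREAM complex and the E2F element (searched as TTTNNCGC) by E2F factors; both strands were searched from 250 bases before to 50 bases after each gene's start in RefSeq (GRCh38.p14). CHR letters stood in 15.4% and E2F letters in 6.9% of all 27305 promoters of that reference, which include those of genes not tested here. For the 62.1% of tested genes with a promoter, the shares were 9.68% and 10.3%. Of members with a promoter, E2F letters stood in 11 of 20 origin licensing genes (55.0%), 10 of 21 replication fork genes (47.6%) and 6 of 16 genes of the E2F and RB family (37.5%), and CHR letters stood in 8 of 19 genes of the spindle checkpoint and APC/C (42.1%). E2F letters also stood in 3 of 12 promoters (25.0%) of each of the p53 target groups of arrest and repair and of cell death, and in 6 of 25 (24.0%) of the SR and hnRNP genes. CHR letters stood in 1 of 20 (5.0%) of the origin licensing genes and in 0 of 21 of the replication fork genes. A match is a description of letters and not a measured site. The stretches below run 5′ to 3′ on the gene's strand with the match in capitals; the first 3 show CHR matches of mitotic genes 13 to 29 bases before the start, and the next 4 show E2F matches of genes among the 12 largest falls.
PLK1 (chr16:23678820-23678903, plus strand): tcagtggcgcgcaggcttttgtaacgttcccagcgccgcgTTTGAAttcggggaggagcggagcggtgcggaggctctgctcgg
CCNB2 (chr15:59105077-59105160, plus strand): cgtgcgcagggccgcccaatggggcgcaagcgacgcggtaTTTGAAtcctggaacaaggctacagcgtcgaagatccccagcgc
CENPA (chr2:26785998-26786070, plus strand): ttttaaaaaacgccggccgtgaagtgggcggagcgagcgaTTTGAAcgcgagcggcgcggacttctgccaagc
CDC6 (chr17:40287846-40287893, plus strand): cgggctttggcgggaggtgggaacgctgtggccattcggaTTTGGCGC
GINS2 (chr16:85688940-85689025, minus strand): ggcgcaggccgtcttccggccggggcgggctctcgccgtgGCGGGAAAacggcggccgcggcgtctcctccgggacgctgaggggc
EXO1 (chr1:241848168-241848218, plus strand): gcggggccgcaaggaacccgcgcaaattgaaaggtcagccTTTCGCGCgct
E2F2 (chr1:23531224-23531350, minus strand): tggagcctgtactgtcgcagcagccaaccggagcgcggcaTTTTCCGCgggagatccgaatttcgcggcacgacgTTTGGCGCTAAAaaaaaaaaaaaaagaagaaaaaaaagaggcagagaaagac

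Genes of the E2F and RB family fell in 14 of 19 cases, 1 rose and the median log2 fold change was -0.80. E2F2, an activator of S phase genes, read 1172, 1204 and 1182 with DMSO and 125, 119 and 119 with selinexor (-3.28, SE 0.0899). Its stretch above holds 3 matches, the last of which overlaps the one before it and lies on the opposite strand. The repressor E2F8 fell by 3.14 (SE 0.128), MYBL2, the B-MYB partner of the mitotic program, by 2.73 (SE 0.113) and FOXM1, the mitotic activator, by 1.73 (SE 0.0872). RB1 (-0.36) and RBL2 (-0.16), which encode the pocket proteins RB and p130, were not past the threshold, and the dimerisation partner TFDP2 rose by 0.72. Of 19 cyclins, cyclin-dependent kinases and their activators, 17 fell, 1 rose and the median was -1.63. The phosphatase gene CDC25A, which removes inhibitory phosphate from CDK2, read 4914, 5242 and 5153 with DMSO and 824, 1045 and 912 with selinexor (-2.47, SE 0.101). CCNA2 (-2.29), CCNE2 (-2.35) and CCNB1 (-1.91) fell, the cyclin D gene CCND1 rose by 0.67 and CDK6 was at -0.08, not past the threshold. Among 7 CDK inhibitors the members parted. CDKN1A and CDKN1C, which encodes p57, rose, the latter from 155, 148 and 162 to 488, 397 and 387 (1.44, SE 0.123). CDKN2C and CDKN2D, of the INK4 family, CDKN1B (p27) and the phosphatase gene CDKN3 fell, by 0.57, 0.68, 0.33 and 2.34, and CDKN2A was at -0.32 and not past the threshold. The fall of CDKN1B was lost without DMSO 2 or DMSO 3 and with equal totals without RN7SL and mitochondrial genes.

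DNA replication genes fell at every step from licensing to chromatin copying. In origin licensing and firing 22 of 23 genes fell, none rose and the median was -1.99; ORC4 (0.03) was the remaining member. CDC6, which loads the MCM helicase, read 3624, 3834 and 3795 with DMSO and 542, 602 and 549 with selinexor (-2.73, SE 0.0827), and GINS2, part of the active helicase, read 996, 1098 and 1011 against 152, 135 and 147 (-2.83, SE 0.0992). The groups did not overlap in either gene. All 25 genes of the replication fork fell, with a median of -1.63 and a range from -2.56 for CLSPN, which encodes the checkpoint mediator claspin, to -0.87 for POLD2, a subunit of polymerase delta. Of 23 genes of nucleotide supply, 19 fell, none rose and the median was -1.02. RRM2, the S phase subunit of ribonucleotide reductase, read 10941, 11570 and 11238 with DMSO and 1325, 1603 and 1636 with selinexor (-2.89, SE 0.0979), opposite to its p53-driven counterpart RRM2B. TK1 (-2.59) and DUT (-1.27) fell with it, while CAD (-0.16) and IMPDH2 (-0.21) of the de novo pathways were not past the threshold. In chromatin copying and DNA methylation 15 of 16 genes fell, none rose and the median was -1.43. The histone chaperone gene ASF1B fell by 2.68 (SE 0.126) and UHRF1, which guides DNMT1 to newly copied DNA, by 2.45 (SE 0.106), and the de novo methylase gene DNMT3A stood at -0.00017. Genes with symbols of the replication-dependent histones fell in 61 of 66 cases and none rose, with a median of -2.44, and their share of all reads went from 2.1% to 2.2% with DMSO to 0.458% to 0.484% with selinexor. Histone genes are near-identical copies between which reads may have been split, so only the group is given.

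Mitotic genes were lower as well. All 22 genes of the centromere and kinetochore fell by at least 2-fold, with a median of -1.86 and a range from -2.47 for SKA1, of the complex that couples kinetochores to microtubules, to -1.30 for CENPF. ZWINT, which links the outer kinetochore to the checkpoint, read 4108, 4434 and 4304 with DMSO and 1066, 1221 and 1101 with selinexor (-1.92, SE 0.0853). Of 23 genes of the spindle checkpoint and the anaphase-promoting complex (APC/C), 21 fell, none rose and the median was -1.06. The kinase gene AURKB read 2220, 2234 and 2166 with DMSO and 462, 434 and 431 with selinexor (-2.32, SE 0.0803), and PLK1, shown above, fell by 1.45. The APC/C activator of G1, FZR1 (-0.12), and the core subunit CDC16 (0.20) were not past the threshold; CDC16 passed it as a rise under both equal-total scalings, the trimmed scaling, a mean of 50 or more and without selinexor 1. In mismatch and base excision repair 11 of 17 genes fell, 1 rose and the median was -0.35. MSH6, a subunit of the mismatch sensor, read 11025, 10972 and 10992 against 3660, 3615 and 3603 (-1.60, SE 0.0693), and the glycosylase gene UNG fell by 1.75 (SE 0.0881). The glycosylase gene NEIL1 rose by 0.95, and the count that fell was 7 with equal totals without RN7SL and mitochondrial genes.

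**Figure D3:**
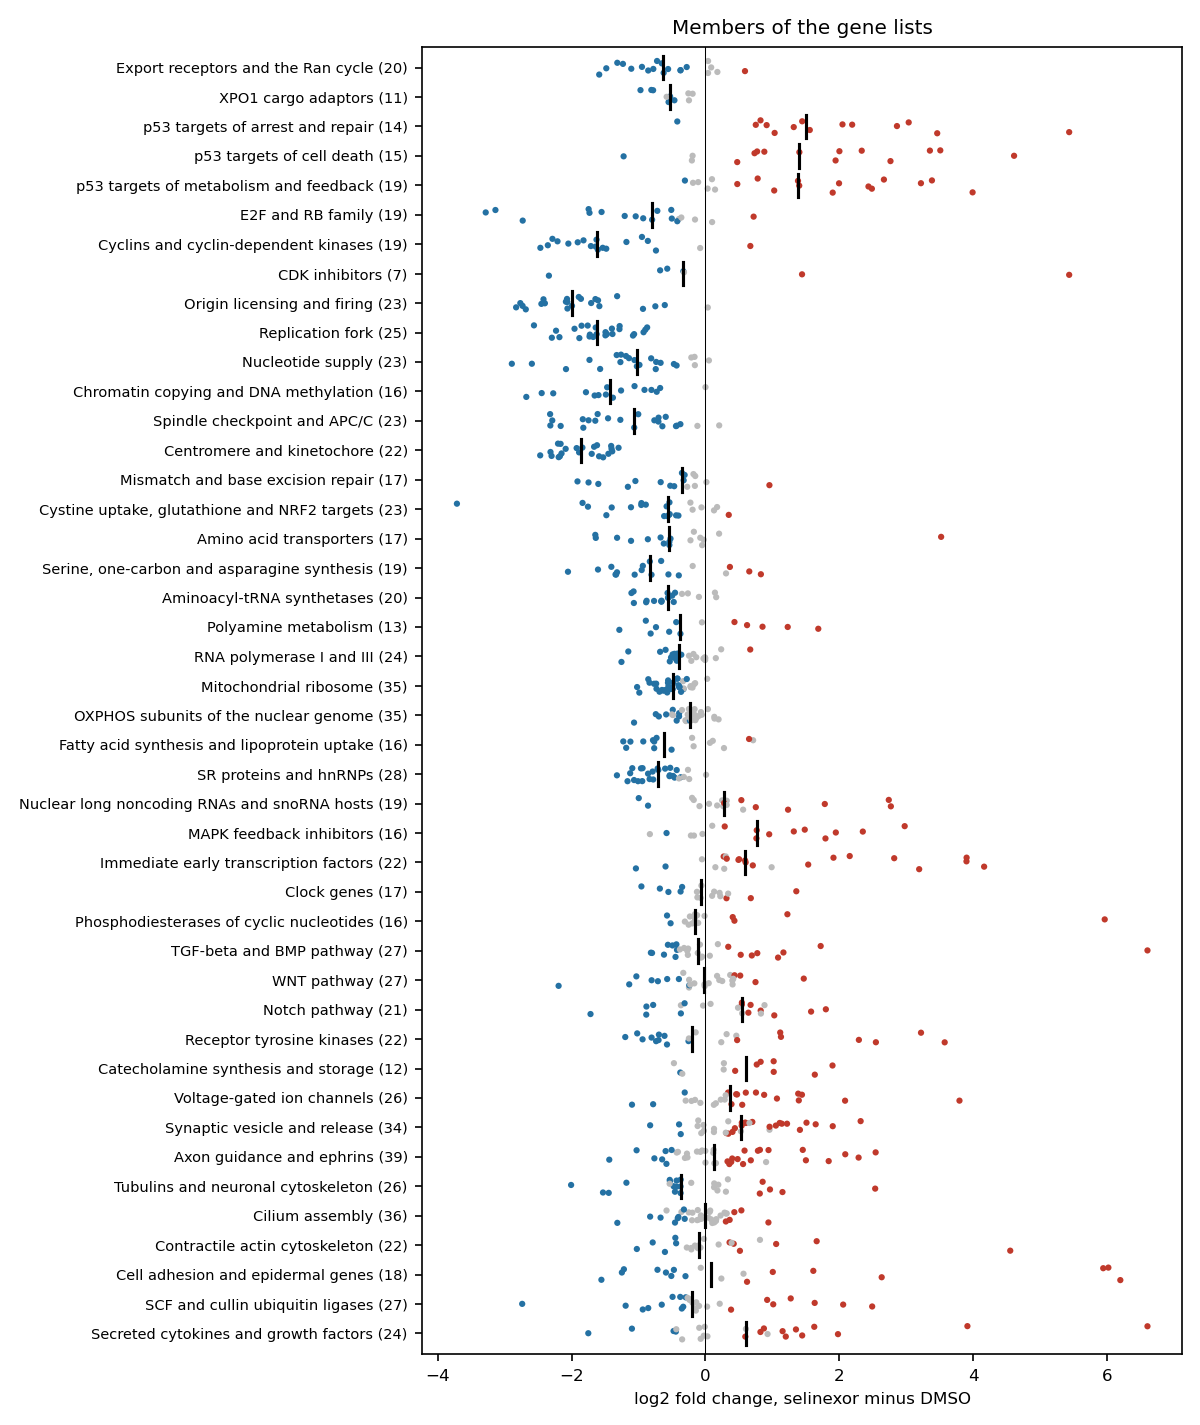
Log2 fold change (horizontal axis) of every tested member of the 44 pathway groups, each group on its own line with its number of tested members. Points are genes in red where higher, blue where lower and grey where not past the threshold, and the black bar is the group's median, from -1.99 for origin licensing to 1.5 for p53 targets of arrest and repair.

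With SLC7A11 included, genes of cystine uptake, glutathione supply and NRF2 targets fell in 17 of 23 cases, 1 rose and the median was -0.57. NRF2 is the transcription factor of oxidant defence. GCLM, the regulatory subunit of the first enzyme of glutathione synthesis, read 1588, 1573 and 1553 with DMSO and 336, 526 and 480 with selinexor (-1.84, SE 0.157), and the quinone reductase gene NQO1 fell by 1.75 (SE 0.169). Both were lowest in selinexor 1. SLC3A2, the partner chain of the SLC7A11 protein, was at 0.13 and GPX4, the peroxidase that guards membrane lipids, at -0.19, both not past the threshold. The rise was that of GPX1 (0.35), which was lost without DMSO 1 or DMSO 3. Of 17 amino acid transporters, 10 fell, 1 rose and the median was -0.54, with 3 higher without selinexor 1. SLC7A5, the large neutral amino acid exchanger, read 2571, 2560 and 2485 with DMSO and 846, 824 and 765 with selinexor (-1.65, SE 0.0806), and the neutral amino acid carriers SLC1A4 (-1.64) and SLC1A5 (-1.32) fell as well. SLC43A2, a facilitative carrier of large neutral amino acids (chromosome 17, 1472561 to 1532181, minus strand), read 238, 256 and 213 with DMSO and 2812, 2810 and 2501 with selinexor (3.52, SE 0.102), the one rise in the group.

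Of 19 genes of serine, folate-linked carbon and asparagine synthesis, 14 fell, 3 rose and the median was -0.83. PHGDH, the entry enzyme of serine synthesis, read 6900, 7510 and 7313 with DMSO and 2026, 1715 and 1523 with selinexor (-2.05, SE 0.111). SHMT2 fell by 1.41 (SE 0.0833), MTHFD1 by 1.34 (SE 0.0826), ASNS, the asparagine synthetase, by 1.34, and ATF4, the activator of many genes of this group, by 0.81. The stress-induced members DDIT3 (0.83), DDIT4 (0.65) and TRIB3 (0.36) rose, the last lost when any single library other than selinexor 1 was left out. Of the members of the amino acid transporter group with a promoter in the reference, 3 of 16 (18.8%) held the letters of the ATF4 composite element (TGATGNAA). The share was 3.67% over all promoters and 1.62% over those of genes tested. The element of ASNS lies 61 to 68 bases before the start, in capitals below.
ASNS (chr7:97872429-97872516, minus strand): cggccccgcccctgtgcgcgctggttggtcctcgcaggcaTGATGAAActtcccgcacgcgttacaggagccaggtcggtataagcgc

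Of 20 cytosolic aminoacyl-tRNA synthetases, which load amino acids onto tRNAs, 15 fell, none rose and the median was -0.56. AARS (-1.11, SE 0.0916) and YARS (-1.07, SE 0.0793) fell the most with FARSB (-1.07), and HARS (0.14) and QARS (0.16) were not past the threshold. Of the polyamine genes, AMD1, SMS and SRM, which make spermidine and spermine, fell by 1.29, 0.74 and 0.54. ODC1, the entry enzyme, read 14298, 15038 and 14478 with DMSO and 24894, 28035 and 26210 with selinexor (0.85, SE 0.0800), and the catabolic genes SAT1 (1.68), PAOX (1.23) and SMOX (0.62) rose, so that 5 of 13 members rose and 7 fell. In fatty acid synthesis and lipoprotein uptake 9 of 16 genes fell, 1 rose and the median was -0.62. The desaturase gene SCD read 19396, 19278 and 19359 with DMSO and 8299, 8295 and 8965 with selinexor (-1.18, SE 0.0743), and FASN was at -0.18, not past the threshold. The rise was that of STARD4 (0.65), which was lost without an intensity trend and when any single library other than selinexor 1 was left out.

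Genes that process RNA were lower. Of 28 SR proteins and hnRNPs, which direct splicing, 23 fell, none rose and the median was -0.71. SRSF7 read 10036, 10079 and 9958 with DMSO and 3421, 4582 and 4108 with selinexor (-1.32, SE 0.109), HNRNPF fell by 1.12 (SE 0.0874) and PTBP1, the repressor of neuronal exons, by 0.94 (SE 0.0729). The neuronal relative PTBP2 was at -0.24 and not past the threshold. Of 24 genes of RNA polymerase I and III, 13 fell, 1 rose and the median was -0.39. POLR3G, the subunit found in stem and tumour cells, fell by 1.25 (SE 0.169), and POLR3GL, its alternative subunit, was the member that rose (0.67). Mitochondrial ribosome genes fell in 27 of 35 cases, none rose and the median was -0.49, with MRPS34 the lowest at -1.02 (SE 0.114). Nuclear genes of oxidative phosphorylation fell in 10 of 35 cases, none rose and the median was -0.23. The share that fell, 28.6%, was near the 26.3% of all genes tested and under the 32.6% of protein coding genes. The count of falls rested on single libraries, with 3 higher and 16 lower without selinexor 1, 19 lower without selinexor 2 and 6 lower without DMSO 2. CYCS, the cytochrome c gene, read 9474, 10081 and 9539 against 3127, 5923 and 5350 (-1.07, SE 0.210).

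Noncoding RNA rose relative to messenger RNA. Genes annotated as protein coding took 76.3% to 76.7% of the reads in the DMSO libraries and 67.7% to 70% in the selinexor libraries. RN7SL1 and RN7SL2, the RNAs of the signal recognition particle, took 9.4% to 9.72% and then 12.6%, 16% and 14.1%. Long noncoding genes were higher in 194 of 546 cases (35.5%) and lower in 38 (6.96%), with a median of 0.41. Protein coding genes in the quartile with the lowest means were higher in 35.2% and lower in 12.7%, with a median of 0.34. The part of gene level in the long noncoding counts was not tested. Genes of small RNA were higher in 68 of 121 cases (56.2%) and lower in none, with a median of 0.80. Mitochondrially encoded genes were taken by symbol as a class of their own, which is not a noncoding class. They took 0.212% to 0.267% with DMSO, 0.272% in selinexor 1 and 0.543% and 0.503% in selinexor 2 and 3. Among 19 nuclear long noncoding RNAs and snoRNA hosts 7 rose, 2 fell and the median was 0.28; 14 rose without selinexor 1 and 13 with equal totals. MALAT1, a nuclear speckle RNA, read 71448, 58527 and 69718 with DMSO and 135409, 159569 and 175160 with selinexor (1.23, SE 0.126). NEAT1, the scaffold of paraspeckles, read 1435, 1058 and 1230 against 7439, 8273 and 9007 (2.74, SE 0.125), and MEG3, an imprinted RNA, rose by 2.77 (SE 0.163). The snoRNA host SNHG1 (-0.86) and CRNDE (-1.0) fell, and GAS5, a host whose RNA is degraded during translation, was at -0.18 and not past the threshold.

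**Figure D4:**
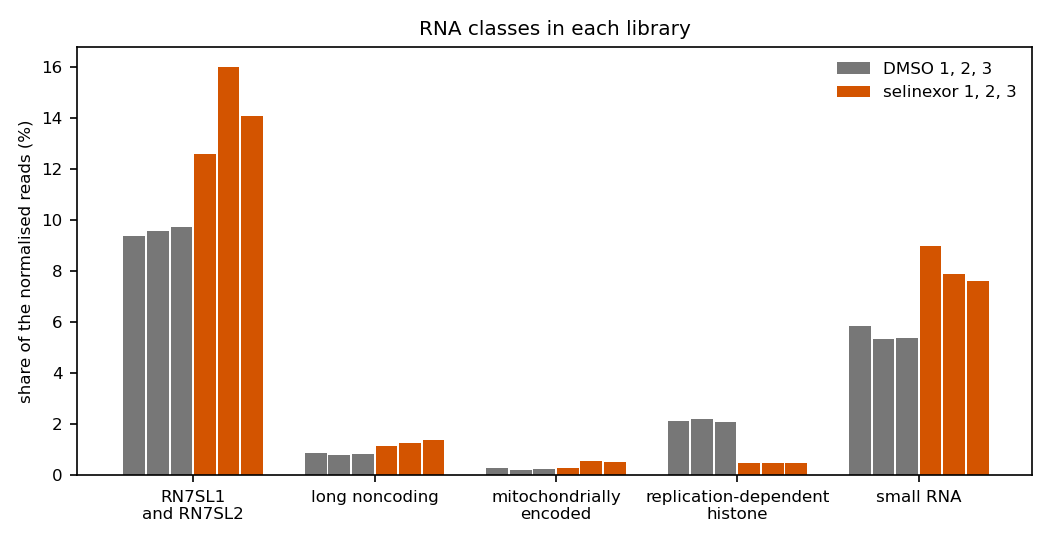
Share of all normalised reads (percent, vertical axis) taken by 5 RNA classes in each library, DMSO 1 to 3 in grey and selinexor 1 to 3 in orange, in that order. The histone share is lower in every selinexor library than in every DMSO library, the RN7SL, small RNA and long noncoding shares are higher, and the mitochondrial share of selinexor 1 is close to the DMSO libraries.

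Of 22 immediate early transcription factors and related genes, 15 rose, 2 fell and the median was 0.60. ARC, the neuronal activity gene, read 71.3, 67.9 and 67.7 with DMSO and 1571, 1121 and 1110 with selinexor (4.16, SE 0.147). EGR1 read 24.1, 23.8 and 24.4 against 362, 420 and 340 (3.90, SE 0.140), and FOS rose by 3.19 (SE 0.193). The groups did not overlap in these genes, and the AP-1 partner JUN was at -0.05 and not past the threshold, while KLF6 and KLF4 fell by 1.04 and 0.60. The fall of KLF4 was lost under both equal-total scalings and without DMSO 1, 2 or 3 or selinexor 2. Of 16 feedback inhibitors of MAPK signalling, 10 rose, 1 fell (2 without DMSO 3, selinexor 1 or selinexor 3) and the median was 0.76. DUSP6, the phosphatase of ERK, read 168, 165 and 189 with DMSO and 710, 1061 and 933 with selinexor (2.35, SE 0.152). DUSP4 rose by 1.95 (SE 0.0833), and the sprouty genes SPRY1 (1.32), SPRY2 (1.48) and SPRY4 (1.79) rose together. DUSP7 fell by 0.58, and ERRFI1, an inhibitor of EGFR, was at 0.10 and not past the threshold.

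Of 22 receptor tyrosine kinases, with NGFR listed beside them as a coreceptor, 7 rose and 10 fell, with a median of -0.20; with equal totals without RN7SL and mitochondrial genes the count was 9 and 8. EGFR read 872, 835 and 831 with DMSO and 448, 396 and 408 with selinexor (-1.02, SE 0.0909), FGFR3 fell by 1.20 and RET by 0.61, of which the fall of RET was lost without DMSO 2 and with equal totals without RN7SL and mitochondrial genes. ERBB3, ERBB4 and AXL rose, by 3.22 (SE 0.331), 2.29 (SE 0.182) and 3.57. ERBB3 was near silent with DMSO, at 5.16, 13.2 and 8.12 against 91.2, 96.2 and 70.9 with selinexor. ERBB4 read 33.5, 36.2 and 34.3 against 142, 171 and 215. At a mean of 50 or more, 4 of the group rose. NGFR, the low-affinity neurotrophin receptor, read 85.1, 109 and 99.3 against 642, 546 and 532 (2.54, SE 0.133), and ALK, a driver gene of neuroblastoma, was at -0.15 and not past the threshold. Among 24 tested cytokines and growth factors 11 rose, 4 fell and the median was 0.60. LIF, of the interleukin 6 family, read 6.02, 6.18 and 11.7 with DMSO and 154, 125 and 111 with selinexor (3.91, SE 0.289), and NRG1, the ligand of ERBB3 and ERBB4, read 231, 218 and 217 against 896, 871 and 864 (1.98, SE 0.0890). INHBE, an activin subunit, fell by 1.75 (SE 0.111) and VEGFA by 0.48, the latter lost with equal totals without RN7SL and mitochondrial genes, where 2 of the group fell. Of 16 phosphodiesterases, which break down cyclic nucleotides, 4 rose and 2 fell, or 4 and 4 without selinexor 1. PDE4C read 2.58, 0.882 and 0.903 with DMSO and 168, 138 and 131 with selinexor (5.96, SE 0.340), and PDE4D rose by 1.22 (SE 0.111).

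The Notch pathway had 8 of 21 members higher and 6 lower, with a median of 0.54. NOTCH1 read 1675, 1689 and 1801 with DMSO and 7769, 5026 and 5486 with selinexor (1.80, SE 0.151), highest in selinexor 1, and the ligand genes DLL3 (1.58, SE 0.113) and JAG1 (1.03, SE 0.142) rose. The target genes HEY1 (-0.88), HEY2 (-1.72) and NRARP (-0.78) fell, and HES1 (0.88) was not past the threshold. The count that fell was 2 or 3 when any DMSO library was left out and 3 with equal totals without RN7SL and mitochondrial genes. The fall of HEY1 was lost without DMSO 1 or selinexor 3, and that of HEY2 under both equal-total scalings, the trimmed scaling, without a trend and when any single library other than selinexor 1 was left out. In the TGF-beta and BMP pathway 8 of 27 genes rose and 8 fell, with 4 lower without DMSO 2 and 5 lower without DMSO 1 or with equal totals without RN7SL and mitochondrial genes. The ligands TGFB1 (0.69), TGFB2 (1.72) and TGFB3 (0.77, SE 0.114) rose and the signal transducer SMAD3 fell by 0.82 (SE 0.0798). In the WNT pathway 4 of 27 genes rose and 8 fell, a balance that was 6 and 6 with equal totals and 9 and 6 with RN7SL and mitochondrial genes also set aside. Without selinexor 1, 7 of them rose, and without DMSO 1 or DMSO 2 the count was 2. LGR5, the R-spondin receptor, read 357, 399 and 369 with DMSO and 64.8, 87.7 and 93.8 with selinexor (-2.19, SE 0.157), and the feedback gene AXIN2 fell by 0.80 (SE 0.0857). Clock genes gave 3 higher and 5 lower of 17, which turned to 4 and 3 with equal totals and 7 and 3 with RN7SL and mitochondrial genes also set aside. The count that fell was also 3 without DMSO 1, 2 or 3 and without an intensity trend. The repressor gene NR1D1 rose by 1.36 (SE 0.149) and its paralog NR1D2 fell by 0.55 (SE 0.119). The shares that fell in the Notch (28.6%), TGF-beta and BMP (29.6%), WNT (29.6%) and clock groups (29.4%) were near the 26.3% of all genes tested. Among 27 SCF and cullin ubiquitin ligase genes 7 rose and 10 fell. DTL, the adaptor that destroys CDT1 and p21 in S phase, read 6909, 6592 and 6645 with DMSO and 852, 1065 and 1123 with selinexor (-2.74, SE 0.111), SKP2, the adaptor for p27, fell by 1.19, and FBXW7, the adaptor for cyclin E, rose by 1.27 (SE 0.0999).

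Genes of the sympathetic lineage were in the main higher. Of 14 tested markers of neuroblasts and chromaffin cells, which define the tissue of origin of neuroblastoma, 9 rose, 1 fell and the median was 0.43; their summed value was 66810 to 69040 in the DMSO libraries and 86250 to 92220 in the selinexor libraries. TH, the tyrosine hydroxylase gene, was not analysed here. GATA3, ISL1 and HAND2 rose by 0.91 (SE 0.135), 0.92 (SE 0.0789) and 0.54 (SE 0.0853), of which HAND2 shares 2961 bases with an antisense row. MYCN (chromosome 2, 16080686 to 16087130, plus strand) read 29914, 30989 and 29956 with DMSO and 36518, 30945 and 29498 with selinexor (0.09, SE 0.0976, limma adjusted p = 0.479), with overlapping groups. Of 12 genes of catecholamine synthesis and storage, 7 rose, 1 fell and the median was 0.60. GCH1, which makes the cofactor of TH, read 237, 240 and 235 against 767, 978 and 929 (1.90, SE 0.113). The granule genes VGF (1.63, SE 0.180), CHGA (1.02, SE 0.134) and SCG2 (1.02, SE 0.0842) rose, DBH, which makes noradrenaline, rose by 0.77, and DDC, the decarboxylase, fell by 0.38. The fall of DDC was lost without DMSO 2 or DMSO 3 and with equal totals without RN7SL and mitochondrial genes.

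Of 34 genes of synaptic vesicles and release, 19 rose, 3 fell and the median was 0.53; 5 fell without selinexor 1, and 1 fell without DMSO 1 or DMSO 3 and under both equal-total scalings. VAMP2, the vesicle SNARE, read 232, 195 and 237 with DMSO and 993, 654 and 869 with selinexor (1.90, SE 0.162), and RAB3A, the vesicle GTPase, rose by 1.65 (SE 0.150). Of 26 voltage-gated channel genes, 14 rose, 3 fell and the median was 0.36; 6 fell without selinexor 1. KCNC4, a potassium channel of fast repolarisation, read 35.2, 58.2 and 77.6 with DMSO and 913, 654 and 749 with selinexor (3.79, SE 0.265), and the sodium channel gene SCN3A rose by 1.44 (SE 0.114). KCNQ3, of the M current, fell by 0.78 (SE 0.108). Among 39 axon guidance genes 17 rose, 7 fell and the median was 0.13. The semaphorin receptor PLXNA2 read 1019, 1024 and 1112 with DMSO and 7843, 5178 and 5641 with selinexor (2.54, SE 0.147), the ephrin genes EFNA1 (2.09) and EFNB1 (1.45) rose, and SEMA5A fell by 1.44 (SE 0.0885).

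Among 26 tubulins and neuronal cytoskeleton genes 13 fell, 5 rose and the median was -0.37. TUBA1B, a widely expressed alpha tubulin, read 102358, 109461 and 105819 with DMSO and 22605, 30223 and 26746 with selinexor (-2.01, SE 0.114), TUBB fell by 1.53 (SE 0.0996) and TUBB4B by 1.44 (SE 0.0863). Tubulin genes have near-identical copies, so single isotypes are uncertain. TUBB3, the neuronal isotype, fell by 0.37, whereas the neuronal microtubule genes STMN2 (2.53), DCX (1.15), MAPT (0.96), MAP1B (0.81) and the neurofilament gene NEFL (0.85) rose. Of 22 contractile actin genes, 6 rose and 5 fell, or 8 and 12 without selinexor 1. ACTA2, the smooth muscle actin, read 34.3, 42.8 and 34.0 with DMSO and 861, 926 and 869 with selinexor (4.55, SE 0.129). It shares 735 bases on the opposite strand with FAS, whose mean went from 47.0 to 330.1, and whether counting used strand is not stated in the labels. Cilium genes gave 5 higher and 8 lower of 36, which was 9 and 8 with equal totals and 11 and 4 with RN7SL and mitochondrial genes also set aside. The count that rose was 9 without selinexor 1, 2 without DMSO 1 or DMSO 3, and 3 without DMSO 2, selinexor 2, selinexor 3 or an intensity trend. The count that fell was 5 without DMSO 2 and 4 without DMSO 3. BBS1 rose by 0.94 (SE 0.0936).

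Cell adhesion and epidermal genes gave 7 higher and 8 lower of 18, with some of the rises from near silence. PVRL4, the adhesion molecule nectin 4, read 7.74, 10.6 and 4.51 with DMSO and 552, 584 and 466 with selinexor (6.02, SE 0.268), an estimated 26 reads against 1440 and a ratio of 69.9 (95% counting interval 47.5 to 107). EPPK1, a cytolinker of epithelia, read 2.58, 6.18 and 4.51 against 577, 252 and 379 (6.19, SE 0.355), and the desmosomal plaque genes PPL (2.63) and JUP (1.61) rose. The adhesion gene NCAM1 (-0.59) and the tight junction gene TJP1 (-0.51) fell. Of 12 markers of epithelial cells only CLDN4 was analysed here, at 11.2, 15 and 13.5 with DMSO and 42.0, 47.6 and 39.3 with selinexor (1.63, SE 0.241). Leukocyte markers had a value here for 2 of 12 genes, with a sum of 12.6 to 15 with DMSO and 17.5 to 32.4 with selinexor. Endothelial markers had a value for 5 of 9, with a sum of 73.2 to 79.4 and then 88.4 to 132, of which CDH5 rose by 1.04 (SE 0.206). Fibroblast markers had a value for 6 of 10, with a sum of 1807 to 2000 and then 1427 to 2378; LUM, PDGFRB and THY1 fell and none rose. Schwann and glial markers had a value for 7 of 10, with a sum of 3542 to 3780 and then 2345 to 2560; 3 rose, among them ERBB3 and FOXD3, and CNP and PMP22 fell; at a mean of 50 or more 1 rose. The part of these marker genes in the results above was not tested.

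**Figure D5:**
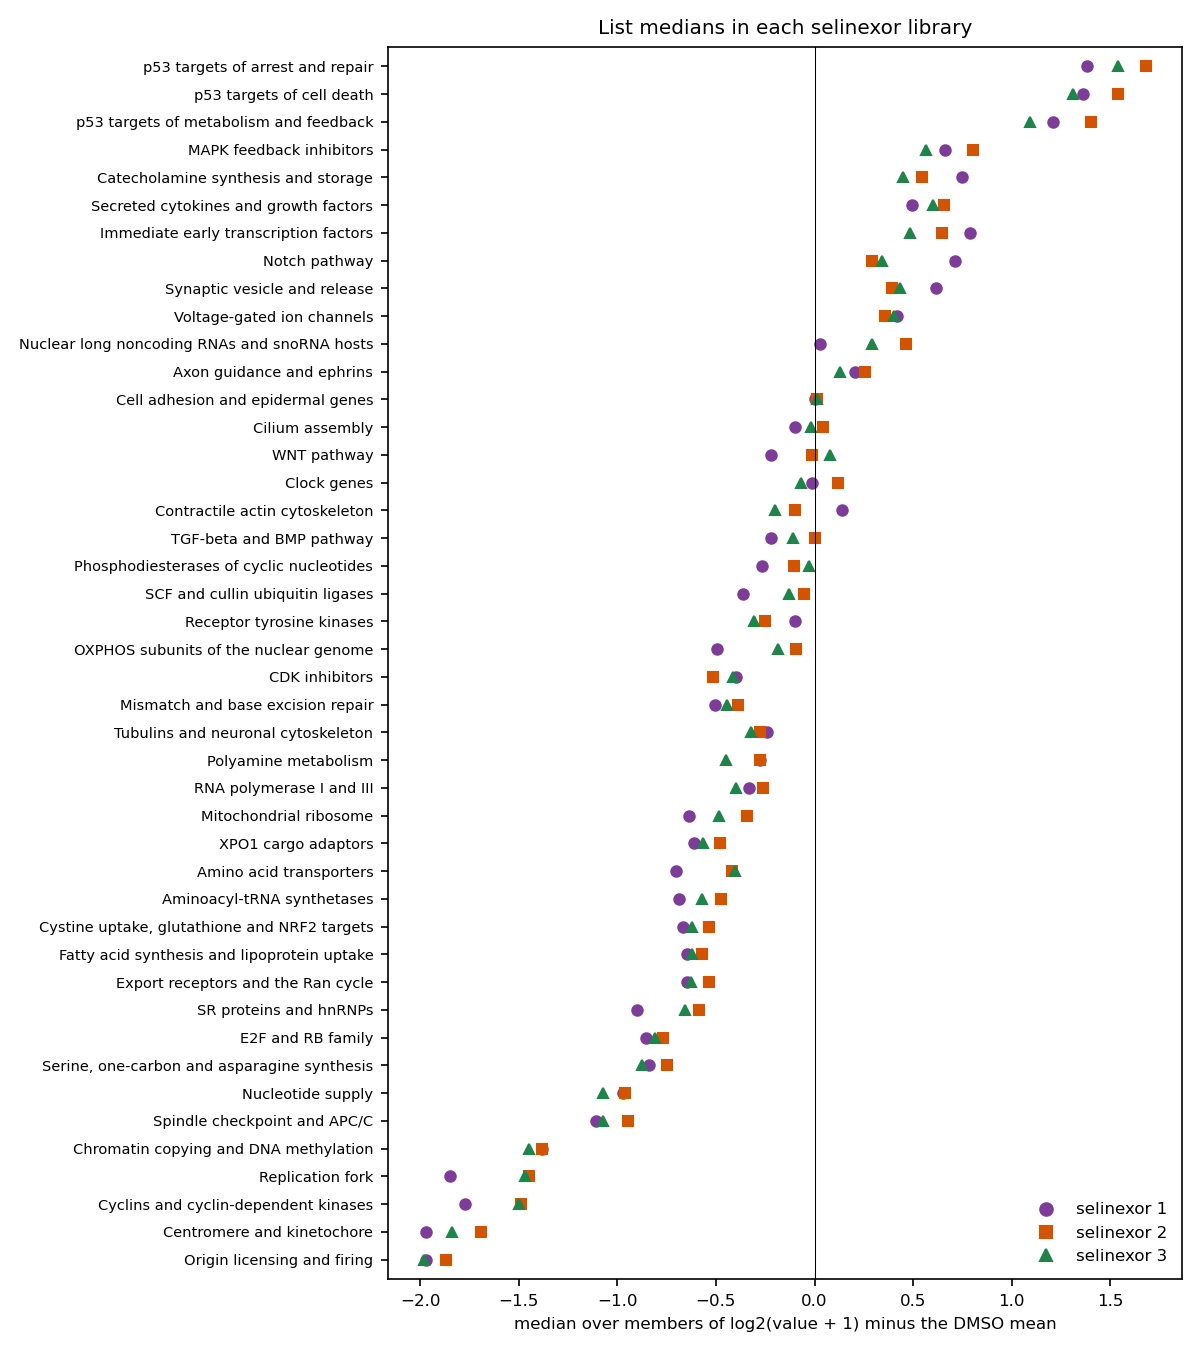
Median over the members of each of 44 pathway groups of log2(value + 1) minus the DMSO mean (horizontal axis), given for each selinexor library by its own symbol and ordered by the group's median log2 fold change. The 3 libraries lie close together for many groups. Among the groups where selinexor 1 is apart are oxidative phosphorylation (-0.50 against -0.10 and -0.18), nuclear long noncoding RNAs (0.03 against 0.46 and 0.29) and the Notch pathway (0.71 against 0.29 and 0.34). Others are the replication fork (-1.85 against -1.45 and -1.47), SR proteins and hnRNPs (-0.90 against -0.585 and -0.655), amino acid transporters (-0.70 against -0.42 and -0.40) and contractile actin (0.14 against -0.10 and -0.20).

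Where the higher group averaged 500 or more and the libraries did not overlap, the 12 largest rises by log2 fold change were those of PVRL4, MUC19, INPP5D, CDKN1A, BBC3, ACTA2, ARC, DRAM1, KCNC4, FAM19A2, SLC43A2 and PHLDA3. The gel-forming mucin gene MUC19 read 19.8, 15 and 14.4 with DMSO and 1067, 790 and 995 with selinexor (5.77, SE 0.173). INPP5D, the inositol phosphatase SHIP1 of blood cells, read 20.6, 16.8 and 10.8 against 762, 741 and 670 (5.45, SE 0.218), while the leukocyte marker PTPRC was not analysed here. PHLDA3, an inhibitor of AKT, read 287, 321 and 317 against 3823, 3512 and 3219 (3.51, SE 0.0974). The 12 largest falls were those of E2F2, E2F8, ESCO2, RPL22L1, RRM2, GINS2, EXO1, SERTAD4, TCF19, MCM10, DTL and CDC6. ESCO2, which acetylates cohesin in S phase, read 2037, 2090 and 2093 with DMSO and 185, 290 and 302 with selinexor (-3.03, SE 0.175). RPL22L1, a paralog of a ribosomal protein with related copies elsewhere in the genome, read 4453, 4564 and 4561 against 398, 774 and 662 (-2.94, SE 0.212). EXO1, a nuclease of mismatch repair and end resection, fell by 2.82 (SE 0.0929).

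By deposited value, the 6 largest gains were those of MALAT1, ACTG1, FAM84A, MAP1B, CDKN1A and MDM2. ACTG1, the cytoplasmic gamma actin, read 119643, 128866 and 123366 with DMSO and 148219, 176390 and 153687 with selinexor (0.36, SE 0.100, limma adjusted p = 0.0173), a call lost without DMSO 1 or DMSO 3 (adjusted p = 0.0743 and 0.0693). The 6 largest losses were those of TUBA1B, TUBB, DDX1, HSPA8, CENPF and NUCKS1. HSPA8, the constitutive HSC70 chaperone, read 77333, 82003 and 79088 with DMSO and 31709, 36750 and 33188 with selinexor (-1.23, SE 0.0884). NUCKS1, a chromatin protein, read 63828, 64541 and 65225 against 23071, 29616 and 28492 (-1.26, SE 0.107). The 95% interval of the log2 fold change lay within -0.2 to 0.2 for 34 genes. That count depends on the width of the intervals and is not a count of unchanged genes. The interval of KIF5C alone ran from -0.127 to 0.196, and 9208 of the 18128 genes tested were not past the threshold. The 5 of highest mean among the 34 were KIF5C, ANKRD17, PIK3R3, BDP1 and the pseudogene EEF1B2P3, whose reads may be shared with EEF1B2. KIF5C, a neuronal kinesin, read 12596, 12485 and 12767 with DMSO and 13149, 12754 and 12860 with selinexor (0.03, SE 0.0705), and passed the threshold as a rise of 0.19 with equal totals without RN7SL and mitochondrial genes (limma adjusted p = 0.0417).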

How the data were processed

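Per the submitters' processing notes, the tools were STAR 2.7.3a, Partek and DESeq2, and the genome build was hg19. The gene annotation, counting method and strand setting were not given in the sources used here. Each deposited value is a signal: the authors' gene counts divided by a size factor for each library. Genes with a mean of 10 or more were tested by limma 3.58.1 in R 4.3.3 on log2(value + 1) (lmFit, then eBayes with its trend option). Tests were two-sided, and p-values were adjusted by Benjamini-Hochberg (threshold 0.05), after the steps were tested on simulated data. Of values from 0.3 to 60, between 64.3% and 66.7% were whole multiples of a step per library within 0.02, so depth was estimated and whole reads were not recovered. Group counts and promoter searches were made in Python 3.11.15 with numpy 2.4.6 and pandas 2.3.3, and plots with matplotlib 3.10.9. Gene classes came from RefSeq by symbol or synonym, apart from RN7SL, mitochondrial and histone genes, which were taken by symbol. Of the 20029 genes, 3758 had no single match and formed a class of their own. Promoters came from RefSeq GRCh38.p14, for 11287 of 18128 genes tested by symbol or older symbol. Motif shares of gene groups are given only where at least 80% of members matched. The shares over genes tested rest on the 62.1% matched.

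The members and gene lists were chosen with earlier results of these data known. Genes were named by rule: XPO1, MYCN, CDKN1A, GDF15 and SLC7A11; the 12 largest rises and falls and the 6 largest gains and losses in value where the call passed, the higher group averaged 500 or more and libraries did not overlap, passing over clone names, small RNA and histone genes; 5 stable genes; up to 4 called members of each of 50 lists by smallest p; and markers of other cell types. Other list members were named after their values were seen, and some genes are not reported here. Replicate numbers were shared by title only: deviations of same-numbered libraries correlated at -0.0136, 0.179 and -0.0811. The other table of the series held 3 columns of per-sample values matching no sample; it was not used here.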

Additional observations from a re-analysis of the deposited data

How the results depend on the processing

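In 15 alternatives (pseudocounts of 0.5 and 5, filters, scalings, no trend, a replicate block, each library left out) none of the 213 genes named by rule changed direction where the main or the alternative fit passed the threshold. Some genes not past it changed sign near 0. MYCN (0.09) was at -0.003 without selinexor 1. The stable genes BDP1, EEF1B2P3 and PIK3R3, below 0 in the main fit, were above 0 with equal totals. Of the group medians, 7 changed sign: cell adhesion (0.08) was -0.07 without a filter, Schwann and glial markers (0.34) were -0.14 at a mean of 50 or more, and cilium (-0.01), clock (-0.06), contractile actin (-0.09), TGF-beta and BMP (-0.12) and WNT genes (-0.02) were above 0 with equal totals without RN7SL and mitochondrial genes (0.15, 0.09, 0.07, 0.04 and 0.14). Clock, WNT and cilium medians were also above 0 with equal totals. The count of genes at least 2-fold higher, 1740, was 894 at a mean of 50 or more, where 13964 genes were tested. Leaving out a library gave 3039 to 5065 higher, 3474 to 6014 lower, 1527 to 1872 at least 2-fold higher and 956 to 1158 at least 2-fold lower; the highest counts of higher and lower genes came without selinexor 1. With the replicate number as a block, 3991 were higher and 4680 lower, and no call of a gene named by rule changed; ALDH4A1 lost its call and a second catecholamine gene fell. The balance of all genes turned with equal totals, to 4637 higher and 4175 lower. The call of DDX1 was lost without DMSO 1, 2 or 3 or selinexor 1 or 3 (limma adjusted p from 0.0649 to 0.125) and with equal totals without RN7SL and mitochondrial genes (0.153). The causes were not tested. At a mean of 50 or more the epithelial, leukocyte and endothelial markers had no tested member and gave no median. Depth limits genes near silence in a group: 1012 of the tested genes had a mean under 10 with DMSO or with selinexor.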

Other observations

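Genes beside MYCN on chromosome 2 (hg19), a region that is often amplified with it, did not move as a block. NBAS read 122378, 124233 and 122261 with DMSO and 104978, 121222 and 118619 with selinexor and was not past the threshold. The helicase gene DDX1 read 246305, 261115 and 256503 against 185546, 222359 and 210090 (log2 fold change -0.31, SE 0.103, limma adjusted p = 0.0357), a call that leaving out most single libraries removed. FAM84A, on the other side of NBAS, read 37107, 37880 and 37300 against 74780, 69669 and 68435 (0.92, SE 0.0800), and a second row within its span on the same strand, AC011897.1, was at 0.12 and not past the threshold. Beyond MYCN, FAM49A rose by 1.31 (SE 0.141), while VSNL1, which encodes a neuronal calcium sensor, fell by 1.30 (SE 0.207), SMC6, of the SMC5/6 complex, by 0.88 (SE 0.121) and GEN1, a resolvase of recombination junctions, by 1.59 (SE 0.120).

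The balance of rises and falls differed with the level of a gene, taken as its mean over all 6 libraries. That mean holds the selinexor values and is also the mean of the filter. A gene could thus enter the lowest quartile through the group where it was high, and the part of this in the balance was not tested. Of 3296 protein coding genes in the quartile with the lowest means (10 to 233), 35.2% were higher and 12.7% lower, with a median log2 fold change of 0.34. In the quartile with the highest means (1970 and above), 12.4% of 3296 genes were higher and 47.8% lower, with a median of -0.28. Quartiles by the genomic span of the gene differed less, with 18.7% to 24.4% higher and 28.7% to 36.5% lower.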
